A study of Mus musculus with 4 samples.

Results

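RNase P and RNase MRP are a pair of related nuclear ribonucleoproteins, each built on its own catalytic RNA and on a largely shared set of protein subunits. The genes described here are the 2 RNA subunits, Rmrp and Rpph1, and 8 protein subunits, Pop1, Pop4, Pop5, Pop7, Rpp14, Rpp25, Rpp30 and Rpp38. They were chosen by name, as the rows of the expression table that carry these symbols, and all 10 were found, each on a locus of its own, among 47935 loci. The samples were MEL cells, a mouse erythroleukemia line arrested at an early erythroid stage, with 2 uninduced samples and 2 samples induced with 1.5% dimethyl sulfoxide (DMSO), which makes these cells resume erythroid differentiation. The sequenced material was total RNA after removal of rRNA, and how long the cells grew with DMSO is not known here. Nothing in the labels says that replicates came from separate cultures: every p-value therefore measures spread among these 4 samples alone, possibly of technical origin. Values are FPKM (fragments per kilobase, relative to the total of the library), and the comparison asks how the induced differed from the uninduced state.

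RNase P cuts the leader off precursor tRNAs and so makes the mature 5′ end of tRNAs. RNase MRP shares most of its proteins with RNase P but carries the RNA Rmrp in place of Rpph1, and it cuts an internal spacer of the rRNA precursor in the nucleolus. Both RNAs are transcribed by RNA polymerase III from promoters that lie upstream of the gene, and inherited changes in RMRP in people cause cartilage-hair hypoplasia.

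The 2 RNAs are shown because they carry the catalytic centres and gave the highest levels among the members. They are the GENCODE M21 transcripts on GRCm38, written as DNA, Rmrp whole (271 bases) and Rpph1 from base 1 to base 300 of its 319 bases. Capitals mark the 2 longest runs of letters that both RNAs hold on the same strand, each 9 bases long.
Rmrp: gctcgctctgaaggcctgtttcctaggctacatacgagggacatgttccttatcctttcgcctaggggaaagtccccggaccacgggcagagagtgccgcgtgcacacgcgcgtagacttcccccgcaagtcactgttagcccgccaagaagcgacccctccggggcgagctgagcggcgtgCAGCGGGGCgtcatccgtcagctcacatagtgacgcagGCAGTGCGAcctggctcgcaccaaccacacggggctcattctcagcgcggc
Rpph1: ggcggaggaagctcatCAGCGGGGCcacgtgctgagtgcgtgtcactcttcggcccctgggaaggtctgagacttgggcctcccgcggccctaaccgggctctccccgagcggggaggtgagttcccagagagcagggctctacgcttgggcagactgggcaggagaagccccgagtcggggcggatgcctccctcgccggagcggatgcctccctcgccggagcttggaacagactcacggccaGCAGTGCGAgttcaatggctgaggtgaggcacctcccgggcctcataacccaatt
The run CAGCGGGGC lay at bases 183 to 191 of Rmrp and 17 to 25 of Rpph1, and the run GCAGTGCGA at bases 221 to 229 of Rmrp and 246 to 254 of Rpph1. On either strand the first run occurred in 13 (0.231%) and the second in 9 (0.16%) of 5627 annotated transcripts of 250 to 350 bases. GC content was 64.2% in Rmrp and 67.1% in Rpph1. A shared run of letters is a description of the sequences, not a functional site.

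Of the 10 members, 9 reached the level needed for a test (at least 1 FPKM in at least 2 samples), and each of the 9 was above that level in all 4 samples. The RNAs stayed within the spread of their replicates. The protein subunits Pop1, Pop7 and Rpp14 were lower in the induced samples past the test's threshold, limma's adjusted p of 0.05 over all loci. No member was higher past it, also at an unadjusted p of 0.05. The 3 members called lower compare with 14.7% of the 12890 tested loci called lower, and the 0 called higher with 11.5% called higher. The median log2 change of the 9 members was -0.43, against 0.03 over all tested loci. In 5 members both induced values lay below both uninduced values, an arrangement found in 34.7% of tested loci. In 0 members did both induced values lie above both uninduced values, which 36.1% of tested loci showed. In bulk RNA, fewer cells of a type and less RNA per cell cannot be told apart.

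**Figure D1:**
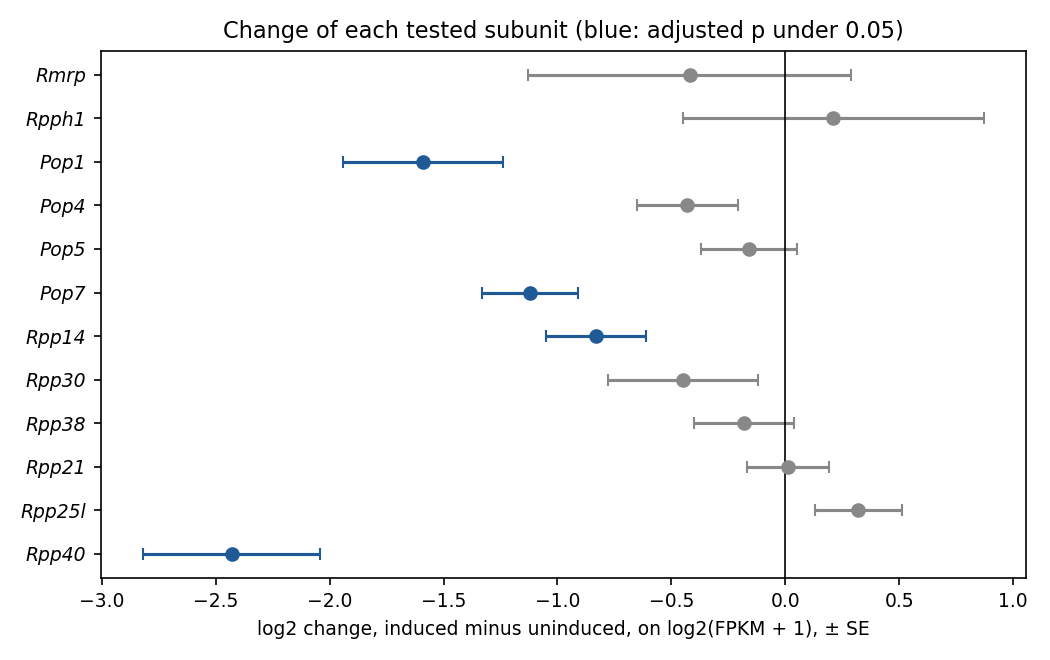
Log2 change (induced minus uninduced, on log2(FPKM + 1)) of the 9 tested members and the 3 other nuclear subunits, with bars of 1 SE from limma on 2 samples a group. Pop1, Pop7, Rpp14 and Rpp40 were called lower, and the bars of the 2 RNAs, Pop5, Rpp38 and Rpp21 span 0.

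Rmrp, the RNA of RNase MRP, lies on chr4:43492788-43493058 of GRCm38, on the minus strand, and is annotated as a ribozyme with 1 transcript. It stood at 56957.7 and 103320 FPKM in uninduced replicates 1 and 2, and at 68322 and 48401.1 FPKM in induced replicates 1 and 2. The highest value was an uninduced one and the lowest an induced one, while the other two lay between them, so the groups overlapped. The group means were 80139 ± 32783 FPKM uninduced and 58362 ± 14086 FPKM induced (SD, n = 2 each), and the log2 change was -0.42 ± 0.71 (SE; limma, adjusted p = 0.681). Without uninduced replicate 2 the log2 change was 0.01, so its direction rested on that library. Rmrp ranked 2 of all loci in every sample and held 5.39%, 7.79%, 5.48% and 4.4% of the summed FPKM of uninduced 1, uninduced 2, induced 1 and induced 2.

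Rpph1, the RNA of RNase P, lies on chr14:50807449-50807767, minus strand, and is also annotated as a ribozyme. Its values were 2028.41 and 7242.25 FPKM in the uninduced and 4017.8 and 4901.84 FPKM in the induced replicates. Both induced values lay inside the gap between the uninduced ones, which differed by 1.84 on the log2 scale. The means were 4635 ± 3687 FPKM and 4460 ± 625 FPKM (SD, n = 2 each), with a log2 change of 0.21 ± 0.66 (SE; limma, adjusted p = 0.826). The ratio of the means was 0.962, so the mean FPKM was slightly lower in the induced samples although the log2 change was positive. Leaving out uninduced replicate 1 turned the direction of the log2 change, to -0.71. Rmrp exceeded Rpph1 in every sample, by 28.1 and 14.3 times in the uninduced and by 17 and 9.87 times in the induced replicates. These ratios overlapped between the groups.

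FPKM of RNAs this short can depend on how a program treats the fragment length. As a rough guide to the value of 1 fragment, the median of the 10 lowest values above 0 was taken among single-exon loci within 10% of a member's length. Multiplied by length, this guide was 3.0 to 4.5 times larger at Rmrp's length than at the length of Rpp25 (1423 bases), and 2.3 to 3.4 times larger at Rpph1's. The loci above 0 numbered 43 to 54 at Rmrp's length, 77 to 92 at Rpph1's and 159 to 210 at Rpp25's. The 10 lowest are a larger share of a smaller set, so these ratios also depend on the number of loci. FPKM of the 2 RNAs and of the longer mRNAs may therefore not be on the same scale per molecule, which was not tested. Rmrp stood 75627 to 224609 times and Rpph1 6147 to 24141 times above the guide value for its length, so neither rests on few fragments.

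Other short noncoding RNAs made by RNA polymerase II or III gave context for the spread of the 2 RNAs. Of 13 named, 4 were tested on a locus of their own, with a median log2 change of -0.36. Rn7sk changed by -8.02 ± 5.61 (SE) and Rnu11 by -0.89 ± 0.39. Rnu3a and Terc changed by 0.16 ± 0.43 and 0.38 ± 0.52. The sign of the median thus rests on Rn7sk, whose change comes from a value of 0 in induced replicate 2. Of the 4, 0 were called (0 also at an unadjusted p of 0.05), beside 14.7% of all tested loci called lower and 11.5% higher. Rnu7, on a shared locus and so not counted, was called higher (1.37 ± 0.31, limma adjusted p = 0.0344). It stood at 26.59 and 40.17 FPKM uninduced and 70.53 and 105.57 FPKM induced. Rn7s1, Rn7s2, Rny1, Rny3, Vaultrc5, Rnu12, Rnu73b and Rnu3b1 were listed at 0 in all samples and gave no context. Rn7sk, the RNA that holds the elongation factor P-TEFb inactive, was the most abundant, at 93378.1 and 169437 FPKM uninduced and 233708 FPKM in induced replicate 1, and it was listed at 0 in induced replicate 2. Such a 0 can be a failed estimate, and its part in the scaling of that library was not tested. Terc, the RNA template of telomerase, stood at 250.55 and 726.27 FPKM uninduced and 557.68 and 551.5 FPKM induced. Like Rpph1, it was low in uninduced replicate 1 and high in uninduced replicate 2.

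The levels most like those of the 2 RNAs were found by Euclidean distance between centred log2(FPKM + 1) values over the 4 samples, among 6697 loci. Closest to Rmrp were the histone H4 genes Hist1h4i, Hist1h4n and Hist1h4h, at distances of 0.134, 0.196 and 0.208. Hist1h4i stood at 1011.24 and 1738.02 FPKM uninduced and 1082.99 and 857.19 FPKM induced, with uninduced replicate 2 highest and induced replicate 2 lowest, as for Rmrp. Histone mRNAs of this kind are short and lack a poly(A) tail. Closest to Rpph1 were Terc (0.346), Osbpl2 (0.435) and Nupr1 (0.456). With 4 samples such distances describe these libraries only.

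Both RNA genes lie against other genes, and strandedness of the libraries is not known here, so fragments of overlapping genes cannot be assigned with certainty. Rmrp overlaps the 5′ end of Ccdc107, a gene on the opposite strand, by 159 bases, of which 124 are exon on exon. Ccdc107 stood at 25.55 and 49.67 FPKM uninduced and 22.99 and 25.08 FPKM induced (log2 change -0.55 ± 0.34, limma adjusted p = 0.274), levels far below those of Rmrp. Rpph1 overlaps the first part of Ccnb1ip1, a ubiquitin ligase known for its role in meiotic crossing over, on the same strand by 284 bases, 233 of them exon on exon. Ccnb1ip1 fell from 34.51 and 15.53 FPKM to 3.82 and 1.87 FPKM (-2.70 ± 0.46, limma adjusted p = 0.0201, and 0.0613 to 0.114 without any 1 library), while Rpph1, far above it in each sample, was not called. Parp2, a DNA damage polymerase that starts 73 bases from Rpph1 on the other strand, stood at 20.95 and 20.64 FPKM uninduced and 18.85 and 18.4 FPKM induced (-0.15 ± 0.18, adjusted p = 0.556).

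**Figure D2:**
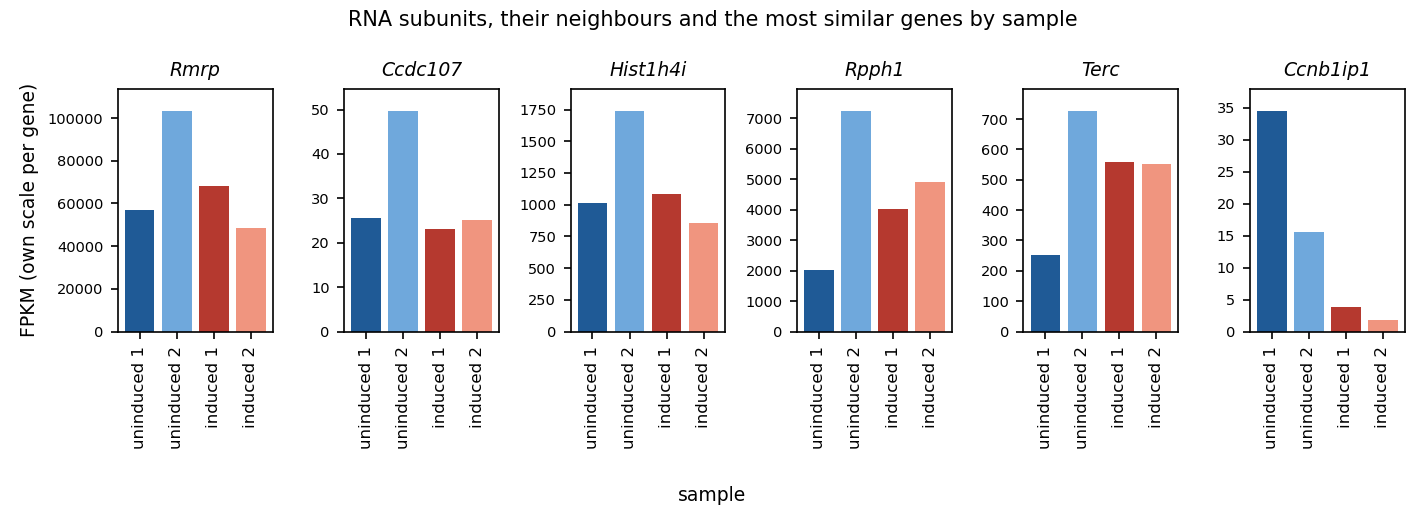
FPKM in each of the 4 samples (bars, linear axes from 0, each gene on its own scale) for Rmrp with its neighbour Ccdc107 and the similar Hist1h4i, and for Rpph1 with the similar Terc and its neighbour Ccnb1ip1. Uninduced replicate 2 is the highest bar for Rmrp, Ccdc107, Hist1h4i, Rpph1 and Terc, while both induced bars of Ccnb1ip1 are below both uninduced ones.

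Among the protein subunits, Pop1 is the largest and the scaffold on which the others assemble with the RNA. It lies on chr15:34495304-34530648, plus strand. Its values were 22.7 and 15.2 FPKM uninduced and 7.48 and 4.03 FPKM induced. Every induced value was below every uninduced one, and replicate 2 was the lower in both groups. The mean fell from 18.9 ± 5.3 to 5.76 ± 2.44 FPKM (SD, n = 2 each), a ratio of 0.304, with a log2 change of -1.59 ± 0.35 (SE; limma, adjusted p = 0.0327). Of the members it fell the most. Leaving out any 1 of the 4 libraries kept the direction, at -1.96 to -1.21, but ended the call, as it ended most calls over all loci.

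Pop7, also known as RPP20, pairs with Rpp25 to bind the RNA. It lies on chr5:137501438-137502518, minus strand, in the same stretch as the longer span annotated for Epo, which overlaps it with no exon on exon. Values were 32.39 and 28.22 FPKM uninduced and 14.75 and 12.16 FPKM induced. The groups were apart, with replicates closer together than for Pop1. The mean fell from 30.3 ± 2.95 to 13.5 ± 1.83 FPKM (SD, n = 2 each), a ratio of 0.444 (log2 change -1.12 ± 0.21, limma adjusted p = 0.023). Without any 1 library the change was -1.25 to -0.99 and the call was lost, as were most calls over all loci. The shared locus of Epo, Gnb2 and Mir6418 stood at 195.85 and 187.74 FPKM uninduced and 153.9 and 189.38 FPKM induced (-0.17 ± 0.21, adjusted p = 0.575).

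Rpp25, the partner of Pop7, lies on chr9:57504026-57505448, plus strand, and was nearly silent. It stood at 0.22 and 0.32 FPKM uninduced and 0.39 and 0.13 FPKM induced, below the level for a test, with overlapping groups. These values were 7.3, 16, 9.8 and 3.2 times the lowest values seen in loci of its length, so they rest on few fragments. Its paralog Rpp25l, which is known to replace Rpp25 in the human complexes, was 147 and 91.1 times higher in the uninduced and 104 and 280 times higher in the induced replicates. Rpp25l stood at 32.26 and 29.14 FPKM uninduced and 40.67 and 36.36 FPKM induced, with both induced values the higher (log2 change 0.32 ± 0.19, limma adjusted p = 0.254). Rpp25l was thus the more abundant of the paralogs in every sample.

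Rpp14, which sits beside Pop5 and Rpp30 in the complex, is encoded on a transcript that in mammals also carries the frame of a mitochondrial dehydratase of fatty acid synthesis. It lies on chr14:8080367-8091834, plus strand. Values were 23.94 and 27.96 FPKM uninduced and 15.91 and 12.55 FPKM induced, the groups apart. The mean fell from 26 ± 2.84 to 14.2 ± 2.38 FPKM (SD, n = 2 each), a ratio of 0.548 (log2 change -0.83 ± 0.22, limma adjusted p = 0.0483). This call was near the threshold. Without any 1 library it was lost, as were most calls over all loci, at changes of -0.99 to -0.67. Under 2 of the 3 other scalings it was lost too (limma adjusted p 0.0602 by quantiles and 0.0809 by sums that omit globins and the 10 top loci). It was also lost without the filter on low values (0.101), with a pseudocount of 0.1 (0.0519), with the replicate block (0.0522) and without the variance trend (0.0523).

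Pop5 and Rpp30, conserved subunits with counterparts in archaeal RNase P, were not called. Pop5, on chr5:115235836-115245351, plus strand, was the most abundant protein subunit in every sample, at 104.5 and 87.98 FPKM uninduced and 78.63 and 93.37 FPKM induced. Its groups overlapped (log2 change -0.16 ± 0.21, limma adjusted p = 0.588), and under quantile scaling the change was 0.11. The opposite-strand gene Rnf10, a ubiquitin ligase, overlaps Pop5 by 3940 bases with no exon on exon and stood at 32.23 and 21.62 FPKM uninduced and 36.22 and 44.21 FPKM induced (0.58 ± 0.26, adjusted p = 0.156). Rpp30, on chr19:36083716-36104777, plus strand, stood at 26.21 and 15.93 FPKM uninduced and 17.85 and 12.18 FPKM induced (-0.45 ± 0.33, adjusted p = 0.342). Its groups overlapped, and in each group replicate 2 was the lower.

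Pop4, also known as RPP29, binds the catalytic core of the RNA and lies on chr7:38261996-38271423, minus strand. It stood at 21.56 and 16.92 FPKM uninduced and 15.1 and 12.86 FPKM induced, with the groups apart but no call (log2 change -0.43 ± 0.22, limma adjusted p = 0.2). Rpp38, a relative of the kink-turn binding ribosomal protein L7Ae, lies on chr2:3328949-3332643, minus strand. It stood at 6.9 and 6.51 FPKM uninduced and 6.5 and 5.15 FPKM induced, so that the groups were separated by 0.01 FPKM only (-0.18 ± 0.22, adjusted p = 0.556).

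**Figure D3:**
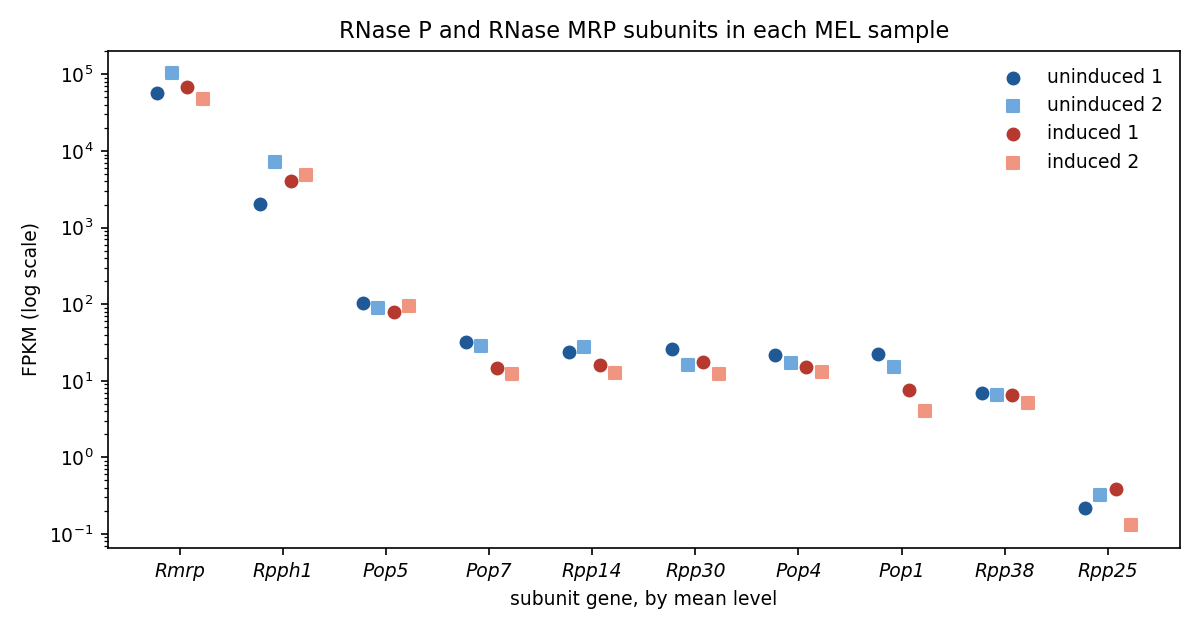
FPKM of the 10 members, ordered by mean, in each of the 4 samples (points, log axis; blue uninduced, red induced, circle replicate 1, square replicate 2). Rmrp and Rpph1 are above all protein subunits in every sample, Pop5 is the highest protein subunit and Rpp25 the lowest member.

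The order of the levels was Rmrp, Rpph1 and Pop5 in every sample. In the uninduced samples Pop7 (28.22 FPKM and above) came next, and the ranges of Rpp14, Rpp30, Pop4 and Pop1, between 15.2 and 27.96 FPKM, overlapped from each neighbour to the next. Rpp38 and then Rpp25 were lowest. In the induced samples Rpp30, Rpp14, Pop4 and Pop7 could not be ordered beyond their spread, all between 12.16 and 17.85 FPKM. Pop1 and Rpp38 overlapped below them, so that Pop1 had moved from the level of Rpp30 and Pop4 to that of Rpp38. The ratio of Pop1 to Pop5 was 0.217 and 0.173 in the uninduced and 0.0951 and 0.0432 in the induced replicates. The protein subunits summed to 238.4 and 199 FPKM in the uninduced and 156.6 and 152.4 FPKM in the induced replicates.

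The other nuclear subunits were Rpp21, Rpp40 and Rpp25l. Rpp40, a subunit that contacts Pop5 and is known to be shared by both enzymes, fell from 11.39 and 7.74 FPKM to 1.7 and 0.39 FPKM (log2 change -2.43 ± 0.39, limma adjusted p = 0.019). Both induced values were below both uninduced ones, and induced replicate 2 was the lowest. Leaving out 1 library gave adjusted p of 0.0495 to 0.0958, passing only without induced replicate 1, and changes of -2.90 to -1.95. Rpp21, which is known from human RNase P and not from RNase MRP, stood at 39.35 and 39.37 FPKM uninduced and 41.54 and 38.02 FPKM induced (0.01 ± 0.18, adjusted p = 0.96), and its change was -0.03 under median-of-ratios scaling. Whether the change of Rpp40 differed from that of Rpp21 or of any member was not tested.

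Mitochondria of mammals use an RNase P made of protein only. Of its 3 subunits 0 were called, beside 14.7% of all tested loci called lower and 11.5% higher. At an unadjusted p of 0.05, 1 was lower, the nuclease Prorp. Prorp stood at 7.37 and 6.41 FPKM uninduced and 4.67 and 3.15 FPKM induced (log2 change -0.70 ± 0.25, limma adjusted p = 0.0961). The methyltransferase Trmt10c stood at 10.29 and 4.62 FPKM uninduced and 7.11 and 4.58 FPKM induced (-0.24 ± 0.41, adjusted p = 0.676). The dehydrogenase Hsd17b10 was the most abundant, at 110.8 and 131.45 FPKM uninduced and 121.81 and 153.09 FPKM induced (0.18 ± 0.22, adjusted p = 0.575).

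Promoter sequence was taken from RefSeq on GRCm38.p6 for the members it held, 7 of 10, without Rmrp, Rpph1 and Pop1. The 250 bases before each RefSeq start were searched on both strands. The motif TCTCGCGA (reverse complement TCGCGAGA) is part of the palindrome TCTCGCGAGA, known from promoters of housekeeping genes. The motif was found in Pop7, which was called lower, and in Rpp38, which was not, against 0.858% of 32851 promoters of this length. The core of the cAMP-response element, TGACGT (reverse complement ACGTCA), was found in Pop4 and Rpp38, against 6.47% of promoters, and the E-box CACGTG in none of the 7, against 6.02%. The GC box GGGCGG (reverse complement CCGCCC) was found in Pop5, Pop7 and Rpp25, against 32.7%. The 2 promoters with the motif TCTCGCGA are shown 5′ to 3′ on the gene's strand, up to the first annotated exon, with this motif and TGACGT in capitals. In Rpp38 the capitals TCTCGCGAGA hold the motif on each strand, overlapping, and so the whole palindrome, which Pop7 lacks.
Pop7, minus strand of chr5:137502519-137502672: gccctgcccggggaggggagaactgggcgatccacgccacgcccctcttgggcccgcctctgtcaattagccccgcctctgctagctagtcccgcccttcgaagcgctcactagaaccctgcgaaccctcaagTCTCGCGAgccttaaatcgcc
Rpp38, minus strand of chr2:3332644-3332878: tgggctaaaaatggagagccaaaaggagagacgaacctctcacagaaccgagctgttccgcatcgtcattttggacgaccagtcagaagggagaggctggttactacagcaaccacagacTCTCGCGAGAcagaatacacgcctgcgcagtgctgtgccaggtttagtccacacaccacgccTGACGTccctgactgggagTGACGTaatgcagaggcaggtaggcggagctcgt
A match shows letters only, and no match says nothing about the factor.

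The mean profile of the 7 tested protein subunits was most like those of Nudt1, which clears oxidised nucleotides (distance 0.0207), Wdr61, a subunit of the PAF1 and SKI complexes (0.0391), and Pcgf6, a Polycomb subunit (0.0486). Nudt1 stood at 22.57 and 18.66 FPKM uninduced and 13.73 and 11.19 FPKM induced. In each of the 3 genes the order of the samples was uninduced 1, uninduced 2, induced 1 and induced 2, from high to low.

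The other genes of tRNA maturation and of rRNA precursor cleavage were counted from lists chosen with earlier results of these data known. Of 15 tRNA maturation genes, 7 were lower and 0 higher, beside 14.7% and 11.5% of all tested loci. At an unadjusted p of 0.05, 0 were higher too, and the median log2 change was -0.64. Among the 7 were Elac2, Thg1l, Tsen15, Tsen54, Fam98b and Xpot. Elac2, the nuclease that trims the 3′ end of the tRNAs that RNase P trims at the 5′ end, fell from 36.2 and 32.66 FPKM to 12.2 and 11.31 FPKM (-1.47 ± 0.19, limma adjusted p = 0.014). It was picked out for that role after its values were seen. The largest fall was that of Thg1l, which adds a guanosine to the 5′ end of tRNA-His, from 24.8 and 17.25 FPKM to 6.57 and 4.57 FPKM (-1.74 ± 0.28, adjusted p = 0.019). The most abundant, the ligase Rtcb, stood at 127.57 and 133.43 FPKM uninduced and 78.01 and 89.41 FPKM induced and was not called (-0.64 ± 0.19, adjusted p = 0.0645). With any 1 of the 4 libraries left out 0 of the 15 were called, with adjusted p of 0.0619 to 0.0969 for Elac2 and 0.0624 to 0.115 for Thg1l.

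There were 16 genes of rRNA precursor cleavage, the process RNase MRP takes part in. Of these 9 were lower and 0 higher, beside 14.7% and 11.5% of all tested loci. At an unadjusted p of 0.05, 0 were higher too, and the median log2 change was -1.14. The 9 were Rcl1, Nob1, Las1l, Nol9, Nol12, Dis3, Bop1, Pes1 and Wdr12. Wdr12 fell the most, from 62.19 and 58.79 FPKM to 13.94 and 10.11 FPKM (-2.25 ± 0.22, limma adjusted p = 0.0113). Pes1, its partner with Bop1 in the PeBoW complex of the large ribosomal subunit, was the most abundant and fell from 107.65 and 132.68 FPKM to 40.26 and 36.56 FPKM (-1.61 ± 0.20, adjusted p = 0.0137). In both genes the groups were apart. Leaving out 1 library gave 0 to 3 of the 16 genes called lower, with 3 only without induced replicate 1, where Wdr12 had an adjusted p of 0.0448, and an adjusted p of up to 0.0831 for Wdr12 and 0.0932 for Pes1.

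Of the 10 factors of upstream RNA polymerase III promoters, the kind that drive Rmrp and Rpph1, 9 were tested alone. Of these 1 was higher and 1 lower, beside 11.5% and 14.7% of all tested loci, with a median log2 change of 0.22. Snapc1 and Snapc4 are subunits of the complex that binds the proximal element of these promoters. Snapc1 rose from 5.39 and 3.76 FPKM to 9.55 and 8.98 FPKM (0.90 ± 0.24, limma adjusted p = 0.0496). Snapc4 fell from 8.52 and 9.27 FPKM to 3.74 and 3.58 FPKM (-1.09 ± 0.20, adjusted p = 0.023). The call of Snapc1 was near the threshold. By sums that omit globins and the 10 top loci, the list had 0 genes higher and 1 lower. The same counts were found with a pseudocount of 0.1. Without the filter on low values 0 were higher and 0 lower. The most abundant, Snapc2, was not called (15.28 and 16.96 FPKM uninduced, 16.31 and 20.01 FPKM induced, 0.16 ± 0.21, adjusted p = 0.593). Both calls were lost without any 1 of the 4 libraries (adjusted p 0.0749 to 0.209 for Snapc1 and 0.0731 to 0.149 for Snapc4).

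Of 12 genes for RNA polymerase III subunits and its repressor Maf1, 4 were lower (Polr3b, Polr3d and Polr3e among them), beside 14.7% of all tested loci. The median log2 change was -0.40, and 0 were higher (1 at an unadjusted p of 0.05), beside 11.5% of all tested loci. That 1 was Polr3gl, a paralog of Polr3g, named after its values were seen, at 26.77 and 29.77 FPKM uninduced and 41.06 and 63.1 FPKM induced (0.83 ± 0.26, limma adjusted p = 0.074). It passed under quantile scaling (limma adjusted p 0.0465), with the replicate block (0.0462) and with protein-coding loci only (0.0326). In no other alternative did it pass. Polr3d fell the most, from 12.04 and 12.62 FPKM to 3.1 and 2.58 FPKM (-1.80 ± 0.21, limma adjusted p = 0.0128). Maf1, which represses the polymerase when nutrients are short, was the most abundant, at 78.67 and 100.66 FPKM uninduced and 108.59 and 115.36 FPKM induced (0.33 ± 0.21, adjusted p = 0.29). Without any 1 of the 4 libraries 0 of the 12 were called lower (adjusted p 0.0566 to 0.0928 for Polr3d). Neither Rmrp nor Rpph1, both products of this polymerase, was called.

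**Figure D4:**
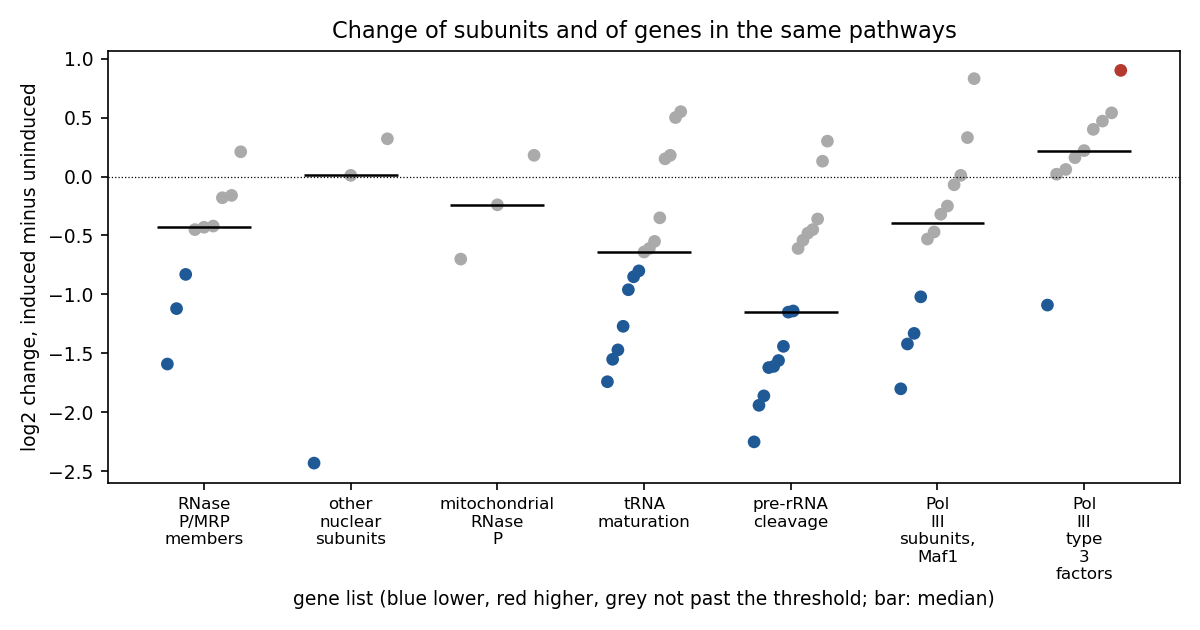
Log2 change (induced minus uninduced, on log2(FPKM + 1)) of each tested gene (points) of the members and of 6 other lists, with the list median as a line; blue points were called lower, red higher and grey not called. The cleavage genes of the rRNA precursor have the lowest median, -1.14, and the members' median is -0.43.

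Genes next to other members were read for the same reason as those next to the RNAs. Of 11 within 2 kb of a member, 9 were in the table and 6 were tested alone. Among the 6 only Ccnb1ip1 was called, lower, beside 14.7% of all tested loci called lower. Rida, 48 bases from Pop1, stood at 23.07 and 18.09 FPKM uninduced and 18.94 and 13.24 FPKM induced (log2 change -0.35 ± 0.26, limma adjusted p = 0.352). Nmt2, 71 bases from Rpp38, stood at 24.22 and 12.75 FPKM uninduced and 21.41 and 24.74 FPKM induced (0.37 ± 0.33, adjusted p = 0.44). The gene 9130604C24Rik, which starts 154 bases from Pop7 on the other strand, stood at 0.93 and 1.42 FPKM uninduced and 0.16 and 0.15 FPKM induced and was not tested. Gm22208 was listed at 0 in all samples, and Gm49195 and Gm44767 were not matched.

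Summed FPKM ran from 1055861 to 1325806 per sample and between 12151 and 12645 loci reached 1 FPKM. Of 9 erythroid markers, at least 8 reached 1 FPKM in each sample, and their summed level went from 1528 and 1819 FPKM uninduced to 58952 and 112380 FPKM induced. The sum is carried by globins, whose share enters the FPKM of every other locus. Rescaled to sums that omit globins and the 10 top loci, the members' median log2 change was -0.34, and Pop1 (-1.50) and Pop7 (-1.02) were still called lower by limma, with adjusted p of 0.0481 and 0.0424. Of the 9 erythroid markers 6 were called higher and 1 lower, beside 11.5% and 14.7% of all tested loci. The one called lower was Spi1, the transcription factor PU.1 of the undifferentiated line, which fell from 101.38 and 115.17 FPKM to 28.06 and 33.61 FPKM (-1.78, limma adjusted p = 0.0128). The erythroid genes Gata1 and Epor were not called. These 3 were picked out after their values were seen. Of 14 markers of other cells, 3 reached 1 FPKM in each uninduced and 2 in each induced sample. Their summed levels were 248 and 402 FPKM uninduced and 193 and 276 FPKM induced, led by the megakaryocyte gene Pf4. Pf4 stood at 198.29 and 329.49 FPKM uninduced and 105.78 and 138.07 FPKM induced (-1.07 ± 0.32, limma adjusted p = 0.0631). The other megakaryocyte gene, Itga2b, on a shared locus, went from 46.79 and 69.48 FPKM up to 85.94 and 136.25 FPKM (0.91 ± 0.32, adjusted p = 0.0949). The epithelial gene Krt8 was called lower, from 1.33 and 1.47 FPKM to 0.03 and 0.23 FPKM (-1.09 ± 0.21, adjusted p = 0.0236). Elane, which marks granulocytes, was at 0 in every sample.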

How the data were processed

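The 4 MEL cell RNA-seq samples, 2 uninduced and 2 DMSO-induced, were grouped by their titles. Per the labels' protocols, RNA was isolated with Trizol and rRNA was depleted with Ribo-Zero. TopHat2 and the GRCm38 build were named per the submitters' processing notes. Quantifier, annotation, strand setting and depth are "not given in the sources used here". What the authors deposited was 1 FPKM column per sample, and the unit was inferred from the layout and the values, and whole reads could not be recovered, so no count test was used. The deposited starts were not used: positions and transcripts are from GENCODE M21, promoters from RefSeq.

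Loci reaching 1 FPKM in 2 or more samples (12890) entered the test: their log2(FPKM + 1) was fitted with limma 3.58.1 in R 4.3.3 (trend, group only) with Benjamini-Hochberg adjustment over all loci at 0.05, two-sided. On simulated data for this comparison (12890 loci, 200 changed), recovery was 10.3% at 2-fold, 91% at 4-fold and 99% at 16-fold. In the data far more loci were called, 1899 lower and 1478 higher. The Benjamini-Hochberg adjustment depends on how many loci change, so these percentages are not the recovery in the data. Because of the added 1, log2 changes of low genes are understated. With 2 against 2 samples an exact permutation test cannot go below p = 0.333 and was not used. A gene sharing its locus with others was not counted. Results of some single list genes are not reported here. The named genes were all members, and from each list the most abundant gene and the called genes with the largest rise and fall (all genes of lists of at most 3 and all neighbours), and the 3 loci most alike to Rmrp, to Rpph1 and to the mean of the protein subunits. Further genes, which complete a count or have a related role, were picked with their values in view. Members and lists were chosen with earlier results of these data known. Alternatives were 3 other scalings, 2 other filters, a replicate block, a pseudocount of 0.1, each sample left out, protein-coding loci only and no variance trend.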

Additional observations from a re-analysis of the deposited data

How the results depend on the processing

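The 3 members lower past the threshold were 0 without the filter on low values (3 at an unadjusted p of 0.05) and 0 to 0 when each sample was left out (2 to 3 at an unadjusted p of 0.05). They were 0 to 2 when low values were also filtered again, an alternative chosen after seeing the data. Over all loci, 1899 were lower and 1478 higher, against 23 and 7 without the filter and 14 to 306 and 0 to 180 with a sample left out. Quantile scaling gave 1692 lower and 1819 higher, and sums that omit globins and the 10 top loci 1516 and 1533; they moved the median of all loci from 0.03 to 0.09 and 0.107. Members lower were 2 by quantile scaling, by sums that omit globins and the 10 top loci, with a pseudocount of 0.1, with the replicate block and without the variance trend, Rpp14 being the one lost. The members' median change, -0.43, ranged from -0.71 to -0.28 with a sample left out. The changes that turned direction were those of Pop5 (0.11 by quantiles), Rmrp (-0.85 to 0.01 with a sample left out), Rpph1 (-0.71 to 1.13) and Rpp21 (-0.03 by median-of-ratios, -0.05 to 0.08 with a sample left out); none was called, and the cause was not tested. Quantile scaling fixes Rmrp, which ranks 2 in each sample, and protein-coding loci alone gave no value for the 2 RNAs. Against the order of the means over both groups together, which includes the difference between the groups, 4 members had another rank in uninduced replicate 1, 2 in uninduced replicate 2, 3 in induced replicate 1 and 4 in induced replicate 2. Deviations of same-numbered samples had a correlation of 0.17 over the tested loci, from 2 pairs of samples, which was not taken as pairing. With the replicate number as a block 2299 loci were lower and 1939 higher, and Rpp14 had an adjusted p of 0.0522 (limma). With a sample left out, tRNA maturation had 0 to 0 genes lower and rRNA precursor cleavage 0 to 3. Depth was not known, and levels as low as that of Rpp25 rest on few fragments.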
